A study of Mus musculus with 31 samples.

Results

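The PYHIN (Ifi200) genes encode DNA-binding proteins of the innate immune system. To describe them across tauopathy and loss of the DNA sensor cGAS, 8 of these genes were taken by name from the microglial count table and by the same Ensembl identifier from the hippocampal one: Aim2, Ifi203, Ifi204, Ifi207, Ifi209, Ifi211, Ifi213 and Mndal. They were 8 of 54532 genes listed for microglia and 8 of 48795 listed for hippocampi. Both tables also held 5 further genes of the family, Ifi202b, Ifi205, Ifi206, Ifi208 and Ifi214, which are given beside the 8 members.

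Proteins of this family carry a HIN domain, which binds double-stranded DNA, and most carry a pyrin domain, which joins other proteins. AIM2 detects DNA in the cytosol and, with the adaptor ASC (gene Pycard) and caspase-1, builds an inflammasome that matures interleukin-1β and interleukin-18. The other members are known mainly as interferon-induced nuclear or cytosolic proteins, and Ifi204 is related to human IFI16, a DNA sensor that acts together with STING. cGAS is a separate sensor whose product cGAMP activates STING, which leads to type I interferon. Interferon then acts through its receptor on transcription factors that include STAT2 and IRF9, which bind the interferon-stimulated response element (ISRE) of target promoters.

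The data are bulk RNA-seq counts of 31 libraries. Primary microglia, grown from the cortices of newborn pups in mixed glial culture and expanded with GM-CSF, were wild type (WT, Cgas+/+) or Cgas-/- and received vehicle, fibrils of tau or DNA from herring testis (HT-DNA), with 3 libraries in each of 6 groups. Tau fibrils are aggregates of the protein that accumulates in tauopathy, and HT-DNA is a standard DNA ligand of cGAS. Hippocampi came from 7 non-transgenic (Ntg) mice, 3 female and 4 male, and from 6 P301S mice, 3 female and 3 male, with 1 library a mouse. The labels give an age of 8 to 9 months, and the study's methods a slightly older range. P301S mice carry human tau with the P301S mutation under the prion promoter, which is active in many neurons. The Cgas genotype of these 13 mice was not stated for this experiment, although the line was crossed with Cgas-/- mice. The study describes the 3 samples of a microglial group as biologically independent, and whether they came from separate litters or cultures was not stated. Their p-values measure the spread between these libraries.

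Total counts ranged from 17037459 to 25174764 in microglia and from 25953296 to 35779977 in hippocampi. Levels are given as normalized CPM, the count scaled to the TMM-adjusted library size in the usual CPM unit. The targeted gene followed the labels. Cgas had 434 to 613 counts in WT vehicle libraries and 73 to 119 in Cgas-/- vehicle libraries, and Mapt, which encodes tau, had 997 ± 88.5 normalized CPM in P301S hippocampi (SD, n = 6) against 572 ± 46.9 in Ntg (SD, n = 7). All 8 microglia markers were detected in every microglial group, and their summed level ran from 5791 to 6169 normalized CPM in WT libraries and from 4188 to 4625 in Cgas-/- libraries. Markers of neurons stayed at or below 3.84, of T and B cells at or below 0.324. Other marker sums moved with the groups. Endothelial markers (4 genes) summed to 105 to 125 in WT vehicle, 141 to 176 in WT tau and 378 to 388 in WT HT-DNA libraries and to 27.5 to 37.2 in Cgas-/- libraries, where Cldn5 was at 0 with vehicle. Oligodendrocyte markers (4 genes) summed to 63.3 to 113 in WT and 50.3 to 54.5 in Cgas-/- libraries, astrocyte markers (5 genes) to 4.46 to 13.7 and 0.636 to 1.76, and fibroblast markers (4 genes) to 0.982 to 5.06 and 0.0521 to 0.441. Their part in the members' differences was not tested. In such bulk samples, fewer cells of a type and less RNA per cell cannot be told apart.

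The family lies in one cluster on chromosome 1. By the GENCODE M21 annotation of GRCm38, the 8 members span 173350879 to 173942672, from Aim2 on the plus strand (173350879-173466040) through Ifi213 (173566283-173599274, minus), Ifi209 (173630917-173647928, plus), Ifi207 (173723427-173741747, minus), Ifi204 (173747293-173766943, minus) and Ifi211 (173896345-173913046, minus) to Ifi203 (173920407-173942672, minus). The gene model of Mndal (173849126-173942491, minus) contains Ifi211 and overlaps Ifi203. The copies resemble each other, which bears on how firmly reads can be assigned. Of all 75-base stretches within the last 500 bases of their transcripts, where 3′ libraries place their reads, none of Aim2, Ifi204 or Ifi207 occurred in another gene. For Ifi211 64.3% did (in Ifi205 and Mndal), for Ifi209 41.1% (in Ifi214), for Mndal 13.6%, for Ifi213 11.4% and for Ifi203 2.37%. How the authors counted reads that match several genes was not given in the sources used here, so the values of Ifi211 and Ifi209 are uncertain in that respect.

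Promoter sequences show what the members share upstream. RefSeq promoters (GRCm38.p6, 250 bases before to 50 after each start site) were at hand for 7 members, all but Ifi204, and were searched on both strands for an ISRE-like core, GAAANNGAA, and for the interferon-γ-activated site, TTCNNNGAA. Some genes have several listed promoters, and a match in any of them was counted. The ISRE-like core was found for 5 of the 7 members and 4 of the 5 further family genes, against 9.76% of all 27025 genes in the table (8.56% of its 32851 promoters). TTCNNNGAA was found for 0 of the 7 and 1 of the 5 (Ifi202b), against 9.55% of genes (8.30% of promoters). The 5 matches on the members' own strand are shown with up to 40 bases on either side, cut at the start site, with the match in capitals.
Ifi203 (chr1:173942493-173942567, strand -): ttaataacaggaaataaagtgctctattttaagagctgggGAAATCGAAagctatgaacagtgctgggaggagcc
Mndal (chr1:173880188-173880263, strand -): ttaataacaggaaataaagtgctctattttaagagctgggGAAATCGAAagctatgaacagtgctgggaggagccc
Ifi207 (chr1:173741810-173741890, strand -): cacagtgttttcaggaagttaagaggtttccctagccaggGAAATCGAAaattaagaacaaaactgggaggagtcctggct
Ifi211 (chr1:173913047-173913123, strand -): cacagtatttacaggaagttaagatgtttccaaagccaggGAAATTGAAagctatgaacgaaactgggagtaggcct
Ifi213 (chr1:173599297-173599385, strand -): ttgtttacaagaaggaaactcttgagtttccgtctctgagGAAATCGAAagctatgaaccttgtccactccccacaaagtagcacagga

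The match began at position -35 from the start site in Ifi203, -36 in Mndal, -41 in Ifi207, -37 in Ifi211 and -73 in Ifi213. Over a stretch of 70 bases that included the match, 70 of 70 were identical between Ifi203 and Mndal and 58 of 70 between Ifi207 and Ifi211. The other pairs shared 33 to 43 of the 70 bases, and 25 of the 70 were the same in all 5. The stretches were aligned on the match, so the letters that the search fixed are shared by choice. No level expected by chance was computed. The RefSeq start sites of Mndal and Aim2 used here lie inside the longer GENCODE models. Aim2 and Ifi209 had no match in the window, and the 90 bases before their start sites are given for comparison. Those of Ifi209 hold taaatcgaa, which differs only in its first letter from the GAAATCGAA of other members. A match or its absence describes these letters only.
Aim2 (chr1:173420514-173420603, strand +): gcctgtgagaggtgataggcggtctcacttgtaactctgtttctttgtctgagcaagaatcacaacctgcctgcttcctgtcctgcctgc
Ifi209 (chr1:173630769-173630858, strand +): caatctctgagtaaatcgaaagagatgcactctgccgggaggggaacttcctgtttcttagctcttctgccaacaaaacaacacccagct

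Microglial levels of the members fell into an order of groups that all 8 shared. Their means were highest in WT cells with HT-DNA, then WT with tau, WT with vehicle and Cgas-/- with tau, and lowest in Cgas-/- cells with HT-DNA or vehicle. Aim2 took the smallest steps in Cgas-/- cells with tau and between the genotypes, and Ifi207 the smallest with tau or HT-DNA in WT cells. The plot of the members by library shows each of the 18 values.

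**Figure D1:**
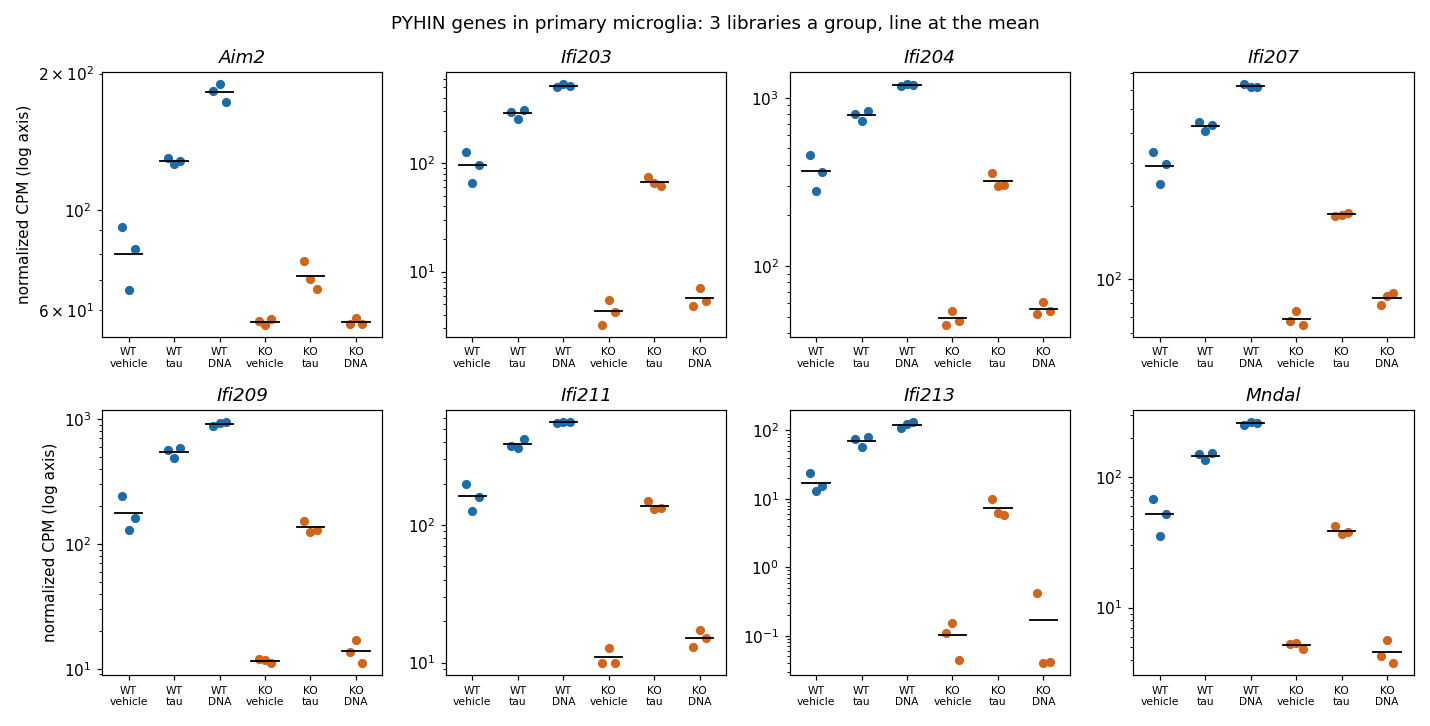
Normalized CPM (log axis, range differs by panel) of the 8 PYHIN genes in primary microglia, 1 point a library and a line at the mean of 3; blue, WT; orange, Cgas-/- (KO). Cgas-/- libraries with vehicle or HT-DNA lie lowest in each panel, and tau raises the orange means toward the WT vehicle level, to 42.2% (Ifi213) to 89.2% (Aim2) of it.

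Both stimuli raised the family in WT microglia, HT-DNA more than tau. With HT-DNA, 8 of 8 members rose past the threshold (adjusted p under 0.05 by edgeR's quasi-likelihood test and log2 fold change above 1), where 5.29% of all genes tested did. With tau 6 of 8 did, against 2.89% of genes. The remaining pair, Aim2 and Ifi207, rose with tau by less than the minimum fold, so that 8 of 8 passed on adjusted p alone, as did 15.8% of genes. The median log2 fold change of the members was 1.38 with tau and 2.05 with HT-DNA, beside -0.01 and -0.03 for all genes tested.

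Ifi204, the relative of IFI16, had 457, 279 and 360.03 normalized CPM in the WT vehicle libraries, 799, 729.5 and 839 with tau, and 1176, 1209 and 1183 with HT-DNA. The 3 groups did not overlap. Of all genes tested, 21.7% lay wholly above vehicle with tau and 26% with HT-DNA, and 22.9% lay wholly higher with HT-DNA than with tau. Its log2 fold change was 1.11 (SE 0.10, adjusted p 1e-09) with tau and 1.70 (SE 0.10, adjusted p 7.02e-14) with HT-DNA. Without the lowest vehicle library, replicate 2, the tau change of Ifi204 was 0.95, under the minimum fold.

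Ifi213 moved most among the members in both comparisons. It had 537, 299 and 282 counts with vehicle, 1387, 1231 and 1532 with tau and 2006, 2285 and 2416 with HT-DNA. Its log2 fold change was 2.03 with tau (SE 0.15, adjusted p 1.82e-11) and 2.80 with HT-DNA (SE 0.15, adjusted p 4.13e-15), a 4.08-fold and a 6.98-fold rise.

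Ifi203, Ifi209 and Mndal formed the next step and stayed close to each other. Ifi203 went from 95.9 ± 29.7 normalized CPM (SD, n = 3) with vehicle to 287 ± 27.4 with tau and 518 ± 18.3 with HT-DNA. Ifi209 went from 177 ± 57.9 to 549 ± 54.1 and 921 ± 34.4. Mndal, named for its likeness to the myeloid nuclear differentiation antigen, went from 51.8 ± 16.3 to 146 ± 9.45 and 259 ± 5.94. The log2 fold change with HT-DNA was 2.32 to 2.43 in these 3, and that with tau was 1.58 for Ifi203 and 1.63 for Ifi209. Ifi211 rose by 1.25 and 1.78.

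Aim2 and Ifi207 changed least. Aim2, the inflammasome sensor, had 91.5, 66.4 and 82.0 normalized CPM with vehicle. It had 130.4, 126 and 128 with tau and 183, 189.8 and 173 with HT-DNA. These groups of Aim2 did not overlap (21.7% of genes lay wholly above vehicle with tau and 26% with HT-DNA). Its log2 fold change was 0.68 (SE 0.07, adjusted p 5.99e-09) with tau and 1.19 (SE 0.07, adjusted p 2.25e-14) with HT-DNA. Ifi207 changed by 0.54 with tau (SE 0.07) and by 1.09 with HT-DNA (SE 0.07), and the latter was 0.98 without vehicle replicate 2, under the minimum fold.

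Compared directly, HT-DNA gave higher levels than tau for 8 of 8 members at an adjusted p under 0.05 (17.8% of genes), but for 0 of 8 by more than the minimum fold (1.49% of genes) with edgeR and with DESeq2. An unadjusted p under 0.05 was reached by 8 of 8 with either tool, and the share of genes at that level was not computed. The differences ran from 0.51 (Aim2) to 0.85 (Ifi203) on the log2 scale.

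In unstimulated cells, 7 of 8 members were lower in Cgas-/- than in WT microglia past the threshold, where 7.35% of genes were lower. Whether the genotypes were cultured in parallel was not stated, so genotype and culture cannot be told apart. All 8 were lower on adjusted p alone, as were 27.3% of genes. The members' median log2 fold change was -3.61, beside -0.01 for all genes. Ifi213 fell to 2, 3 and 1 counts in the Cgas-/- vehicle libraries, against 537, 299 and 282 in WT, and was at least 114-fold lower, taking 3 counts a library as the floor. Ifi203 was at 4.33 ± 1.12 normalized CPM (SD, n = 3) or 4.51% of its WT mean, Ifi209 at 6.54%, Ifi211 at 6.75%, Mndal at 9.95% and Ifi204 at 13.3%. Ifi207 kept 23.4% of the WT level.

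Aim2 kept 70.8%. It had 56.7, 55.7 and 57.4 normalized CPM in Cgas-/- vehicle libraries, each below the lowest WT value of 66.4 (30.9% of genes lay wholly lower). Its log2 difference was -0.50 (SE 0.07, adjusted p 1.78e-06), short of the minimum fold. The microglia marker sum differed between the genotypes too, with ranges of 5929 to 6029 in WT and 4286 to 4413 in Cgas-/- vehicle libraries. The 8 single markers differed by -1.68 to 0.35 on the log2 scale, and 1 was called lower (7.35% of genes). The part of the markers in the members' differences was not tested.

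Tau raised the family in Cgas-/- microglia too. In this comparison 7 of 8 members rose past the threshold (2.46% of genes) and 8 of 8 on adjusted p alone (11.2% of genes), with a median log2 fold change of 3.24. Ifi213 went from 2, 3 and 1 counts to 224, 147 and 150, at least 48.1-fold higher than the floor. Ifi203 rose 15.4-fold (log2 3.95, SE 0.19, adjusted p 2.31e-15), Ifi211 12.6-fold, Ifi209 11.8-fold, Mndal 7.57-fold, Ifi204 6.58-fold and Ifi207 2.69-fold. Aim2 rose 1.26-fold (log2 0.33, SE 0.07, adjusted p 0.0012), from 56.6 ± 0.891 to 71.3 ± 5.25 normalized CPM (SD, n = 3). Its groups did not overlap (17.4% of genes lay wholly higher).

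These fold changes started from a low base, so the levels reached are given as well. Ifi204 reached 359, 298 and 305 normalized CPM in the Cgas-/- tau libraries, within the range of WT vehicle libraries and 87.8% of their mean. For the other members the Cgas-/- tau mean was 42.2% (Ifi213) to 89.2% (Aim2) of the WT vehicle mean. Against WT cells with tau, 7 of 8 members were lower past the threshold (7.41% of genes) and 8 of 8 on adjusted p alone (26.2% of genes). The Cgas-/- tau mean was 10.3% of the WT tau mean for Ifi213, 23.3% to 43.3% for Ifi203, Ifi209, Mndal, Ifi211, Ifi204 and Ifi207, and 55.6% for Aim2.

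HT-DNA gave no such rise. In Cgas-/- cells with HT-DNA against vehicle, 0 of 8 members were past the threshold with edgeR or DESeq2 (0.0146% of genes were higher), 1 of 8 was higher on adjusted p alone (1.04% of genes), and 2 of 8 had an unadjusted p under 0.05 with either tool. The 1 was Ifi207, with a log2 fold change of 0.29 (SE 0.07, adjusted p 0.0357). Without the filter on low counts, 5 of 8 had an adjusted p under 0.05. The share of all genes was computed neither for this count nor for the unadjusted p. Ifi204 had 52.1, 61.3 and 53.9 normalized CPM, overlapping the 44.8, 54.3 and 47.2 of vehicle (log2 0.20, SE 0.12, adjusted p 0.528). Aim2 had 55.9, 57.7 and 55.8 and a log2 fold change of 0.00 (SE 0.07). Ifi213 had 8, 1 and 1 counts, too few for a fold. Compared with WT cells under HT-DNA, 8 of 8 members were lower past the threshold (11.8% of genes), with log2 differences from -1.69 for Aim2 to -6.48 for Ifi203 among the 7 other than Ifi213. Ifi213 had 2006 to 2416 counts in WT against the 8, 1 and 1 in Cgas-/- libraries, and its fitted difference ran from -11.36 to -9.13 when 1 library was left out.

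Whether the responses differed between genotypes was tested with the interaction terms, here the log2 fold change in Cgas-/- minus that in WT cells. For HT-DNA, 7 of 8 members had a smaller response without Cgas (16.6% of genes), with differences of -0.80 (Ifi207) to -2.49 (Mndal). Ifi213 missed the threshold with edgeR (-2.27, SE 1.73, adjusted p 0.339), passed it with DESeq2 (adjusted p 0.0261) and without the filter (0.0434), and its adjusted p ranged up to 0.603 over the settings tried. Its Cgas-/- counts were 8 or fewer in both arms. For tau the 7 genes other than Aim2 had a larger log2 response without Cgas (3.61% of genes) from a lower starting level, with differences from 0.89 (Ifi207) to 2.40 (Ifi211) in 6 of them. The fitted difference of Ifi213, 4.06 (SE 0.75, adjusted p 0.000788), depends on Cgas-/- vehicle libraries at the floor and is no exact size. Ifi204 differed by 1.61 (SE 0.15, adjusted p 2.14e-08), and for Ifi211 the SE was 0.16 (adjusted p 6.54e-11).

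Aim2 was the 1 of 8 members whose tau response was smaller without Cgas (3.31% of genes), with a difference of -0.35 (SE 0.10, adjusted p 0.0311). That call was lost in 8 of 17 alternatives, over which the adjusted p ran from 0.00024 to 0.102 and the difference from -0.46 to -0.23. Leaving out WT vehicle replicate 2 gave -0.23 (adjusted p 0.0846). The same call was lost without WT tau replicate 3, without any 1 of the 3 Cgas-/- vehicle libraries, and without Cgas-/- tau replicate 2 or 3 (adjusted p 0.0519 to 0.102), and when only the compared groups were fitted (0.0601).

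**Figure D2:**
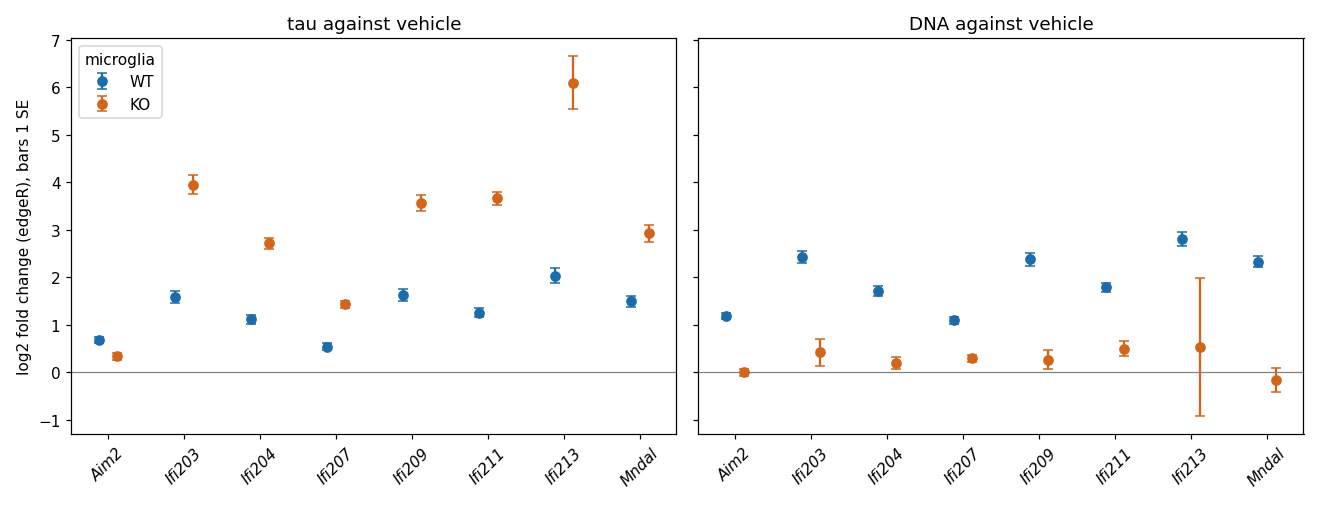
log2 fold change against vehicle (edgeR, bars 1 SE) of each member with tau (left) and HT-DNA (right) in WT (blue) and Cgas-/- (KO, orange) microglia. With tau the orange points lie above the blue for every member but Aim2, and with HT-DNA they lie near 0, between -0.16 and 0.53 (for Ifi213 the orange vehicle and HT-DNA libraries held 8 or fewer counts, so its fitted orange values are not exact sizes).

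The 5 further family genes were read the same way. Ifi202b, whose product lacks the pyrin domain and is known to restrain AIM2, had at most 2 counts in any microglial library and was not tested. The 4 that were tested, Ifi205, Ifi206, Ifi208 and Ifi214, rose past the threshold with tau and with HT-DNA in WT cells and with tau in Cgas-/- cells, and were lower in Cgas-/- than in WT vehicle cells. Of all genes tested, 2.89%, 5.29% and 2.46% rose in these comparisons, in that order, and 7.35% were lower in the last. Ifi205 rose 14.6-fold with HT-DNA in WT cells (log2 3.86, SE 0.17), from 28.1 ± 13.5 to 410.1 ± 43.4 normalized CPM (SD, n = 3). Ifi208 stood at 0, 3 and 2 counts in Cgas-/- cells with HT-DNA and at 2500, 2852 and 2829 in WT, at least 1097-fold lower.

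Genes around the family in its pathways were followed from 3 lists, with up to 4 examples each by size of the HT-DNA change in WT cells. Of the partners of the AIM2 inflammasome, 9 of 10 were tested. In WT cells 6 rose with HT-DNA (5.29% of genes) and 4 with tau (2.89%), and in Cgas-/- cells 2 rose with tau (2.46%). The log2 change with HT-DNA was 2.50 for the cytokine gene Il18, 1.80 for the inflammatory caspase gene Casp4, 1.30 for Casp8, which encodes a caspase of cell death pathways, and 1.29 for the cytokine gene Il1b. Unlike the members, Il1b was raised more by tau than by HT-DNA (log2 5.18 against 1.29). It was also higher, not lower, in Cgas-/- than in WT vehicle cells (1.05, SE 0.44, adjusted p 0.0456), where 2.63% of genes were higher. Il1b had only 9 to 13 counts in WT vehicle, 14 to 37 in WT HT-DNA and 13 to 32 in Cgas-/- vehicle libraries. Its HT-DNA rise and its genotype difference rest on these low counts.

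Of the cytosolic DNA sensing genes 9 of 10 were tested. In WT cells 4 rose with HT-DNA (5.29% of genes) and 4 with tau (2.89%), and in Cgas-/- cells 4 rose with tau (2.46%). Ifnb1, which encodes interferon-β, had 71 to 96 counts in WT cells with HT-DNA, 1 to 11 with tau and 0 to 10 with vehicle, and at most 1 count in any Cgas-/- library. Irf7, the interferon regulatory factor that amplifies the response, rose with tau by 1.57 in WT and by 4.83 in Cgas-/- cells (difference 3.26, SE 0.22, adjusted p 4.2e-11). Zbp1, a sensor of nucleic acids in the Z form, rose by 1.51 and 4.02, and Samhd1, which degrades deoxynucleotides, by 1.26 and 1.22. So Irf7 and Zbp1 had the members' pattern of a larger log2 tau response without Cgas, and the Samhd1 responses differed by -0.04 (SE 0.11, adjusted p 0.889).

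Of the genes that carry the type I interferon signal, all 7 were tested. Stat2, a transcription factor of that signal, rose with tau (log2 1.02) and with HT-DNA (1.46) in WT cells and 6.69-fold with tau in Cgas-/- cells. Irf9, its partner in DNA binding, rose 2.75-fold with tau in Cgas-/- cells. The receptor-bound kinase genes Tyk2 and Jak1 changed by 0.63 and 0.27 with HT-DNA in WT cells, under the minimum fold.

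The 6 genes outside the members whose log2 normalized CPM followed the members' mean most closely over the 18 microglial libraries were Parp12, Samd9l, Helz2, Phf11d, Gbp9 and Irgm1 (Pearson r 0.998 to 0.999). Gbp9 and Irgm1 are interferon-induced GTPases, and Parp12, Samd9l and Helz2 are known interferon-stimulated genes. The members' own correlation with that mean, which includes them, ran from 0.933 for Aim2 to 0.998 for Ifi209. The points share 6 groups of 3 libraries, so these values describe a common pattern over groups.

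Hippocampal levels were far lower in counts, and only Aim2, Ifi203 and Mndal passed the filter on low counts, which asks for enough counts in at least as many libraries as the smaller group holds. None of these 3 was called in P301S against Ntg hippocampi with edgeR (1.32% of genes were higher). An unadjusted p under 0.05 was reached by 1 of the 3, and the share of genes at that level was not computed. Aim2 had 1.49 to 2.47 normalized CPM (median 1.85, n = 7), or 47 to 83 counts, in Ntg mice, and 89, 95, 40, 88, 106 and 206 counts in P301S mice 29, 36, 43, 63, 65 and 77. In normalized CPM, 5 of 6 P301S mice lay above all Ntg mice, and the log2 fold change was 0.81 (SE 0.25, adjusted p 0.121). It was called with DESeq2 (0.80, adjusted p 0.0446) and without mouse 43 (0.96, adjusted p 0.013), and over all settings tried the adjusted p was 0.013 to 0.9996.

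The other 5 members were nearly silent in Ntg hippocampi and split the P301S mice. Ifi204 had 0 to 6 counts in the 7 Ntg mice. In the P301S mice it had 64 (mouse 29), 72 (36), 1 (43), 3 (63), 78 (65) and 95 counts (77). Mice 43 and 63 thus lay inside the Ntg range and the other 4 well above it.

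The same 4 mice stood out for Ifi207 and Ifi209, and less clearly for Ifi211 and Ifi213. Ifi207 had 75, 68, 69 and 79 counts in mice 29, 36, 65 and 77, 0 and 4 in mice 43 and 63, and 0 to 6 in Ntg mice. Ifi209 had 34, 22, 38 and 64 counts in those 4 mice, 0 and 2 in the other two, and 0 to 6 in Ntg. Ifi211 had 8, 4, 13 and 21 counts in those 4 mice, 0 and 1 in mice 43 and 63, and 0 to 3 in Ntg. Ifi213 had 7, 4, 16 and 30 counts, 1 and 0 in mice 43 and 63, and 0 to 2 in Ntg. For both genes the Ntg mice were at the floor, and mouse 36 lay little above it. The P301S means of Ifi211 and Ifi213 were at least 2.48-fold and 3.03-fold above 3 counts a library. Ifi206 and Ifi208, 2 of the further family genes, followed with 20, 8, 14 and 35, and 7, 7, 9 and 26 counts in mice 29, 36, 65 and 77.

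Without the filter, all 8 members could be tested, and 3 were higher in P301S mice, where 1.02% of 30055 genes were. Ifi204 changed by 4.24 on the log2 scale (SE 0.79, adjusted p 0.0164), Ifi207 by 4.08 (SE 0.85, adjusted p 0.0267) and Ifi209 by 3.68 (SE 0.85, adjusted p 0.0449). Ifi211 and Ifi213 missed the threshold (adjusted p 0.102 and 0.0697). Ifi204 stayed past the threshold with any 1 of the 13 mice left out (adjusted p 0.000752 to 0.0478), Ifi207 in 6 and Ifi209 in 2 of these 13 fits, and Aim2 in 1.

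**Figure D3:**
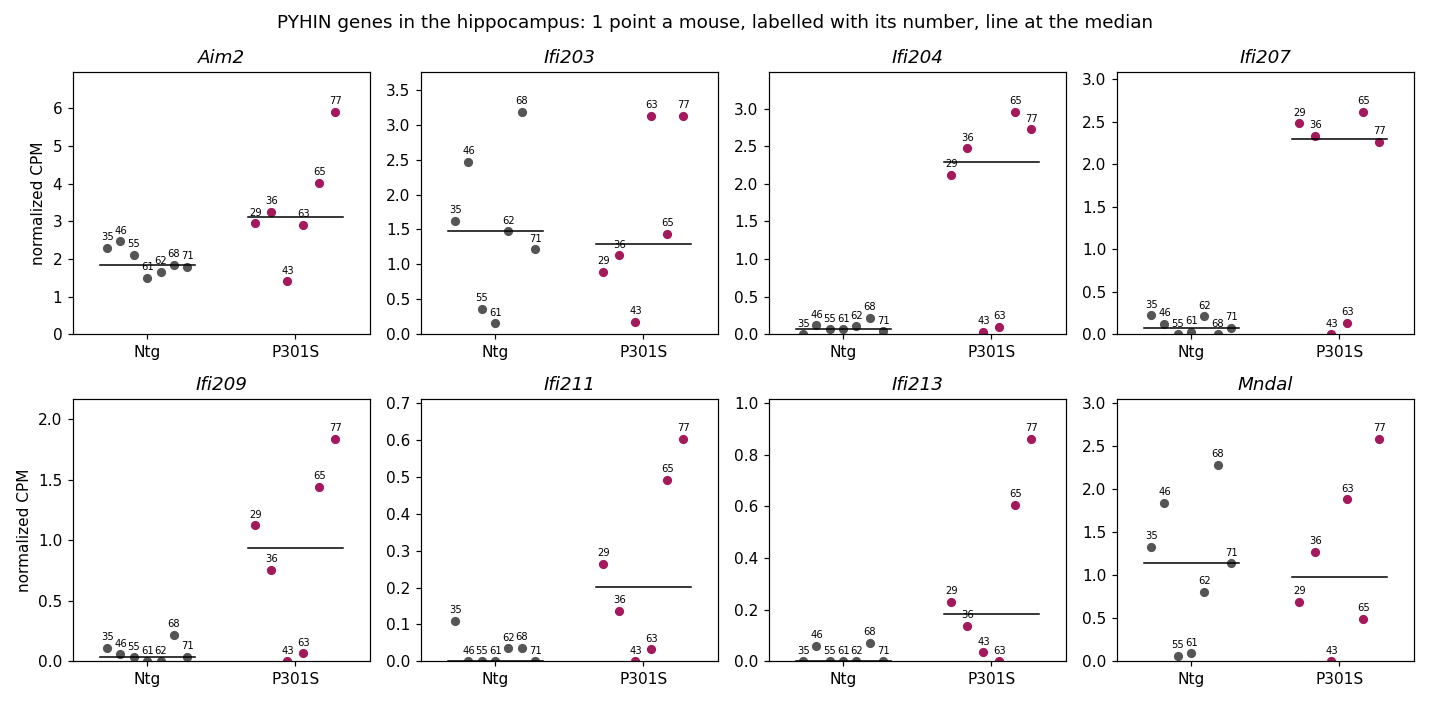
Normalized CPM of the 8 members in hippocampi, 1 point a mouse with its number, Ntg in grey and P301S in purple, and a line at the group's median; the axis range differs by panel. For Ifi204, Ifi207 and Ifi209 the P301S mice 29, 36, 65 and 77 lie above all Ntg mice and mice 43 and 63 among them, whereas Ifi203 and Mndal spread alike in both groups.

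Microglia markers moved with these values. The sum of the 8 markers was 371 to 453 normalized CPM in Ntg mice, 387 and 429 in mice 43 and 63, and 1144, 1081, 1137 and 662 in mice 29, 36, 65 and 77. Set against that sum, Ifi204 had 1.85, 2.28, 2.60 and 4.11 normalized CPM per 1000 of marker sum in those 4 mice, 0.0907 and 0.231 in mice 43 and 63, and 0 to 0.548 in Ntg mice. This ratio is no measure per cell, since the markers did not all rise, and it was not tested. Astrocyte markers (5 genes) summed to 2974 to 4443 in the same 4 mice, to 1341 and 2060 in mice 43 and 63 and to 1327 to 1519 in Ntg mice. Of these 5 genes, 1 was called higher in P301S against Ntg mice, with log2 changes of 0.10 to 2.22. T and B cell markers (5 genes) summed to 0.717 to 1.22 in the 4 mice, to 0.0351 and 0.264 in mice 43 and 63 and to 0 to 0.198 in Ntg mice. With the mean of the microglia markers as a covariate, Aim2 differed by 0.45 (adjusted p 0.9996). The part of these cell types in the members' differences was not tested further.

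Ifi203 and Mndal went a different way and overlapped widely between the genotypes. Ifi203 had 0.155 to 3.19 normalized CPM in Ntg mice (median 1.47) and 0.175 to 3.13 in P301S mice (median 1.29), with a log2 fold change of 0.15 (SE 0.62, adjusted p 0.946). Mndal had 0.0661 to 2.28 and 0 to 2.58, with a log2 fold change of 0.11 (SE 0.75, adjusted p 0.969). The intervals are wide, and these data do not show that the groups were alike.

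What varied was the mouse. Ifi203 had 5, 11 and 5 counts and Mndal 0, 2 and 3 counts in mice 43 (P301S), 55 and 61 (Ntg), whereas every other mouse had 27 to 109 counts of Ifi203 and 13 to 90 of Mndal. Over the 13 mice, which share genotype groups and depth differences, the 2 genes followed each other (Pearson r 0.943, Spearman rho 0.901), and Ifi203 did not follow Ifi204 (r 0.109, rho 0.308). The gene models of the pair overlap on the same strand and their promoters shared the 70 bases compared above, and 2.37% of the 3′ stretches of Ifi203 and 13.6% of those of Mndal occurred in another gene. The part of shared reads in this likeness was not tested.

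**Figure D4:**
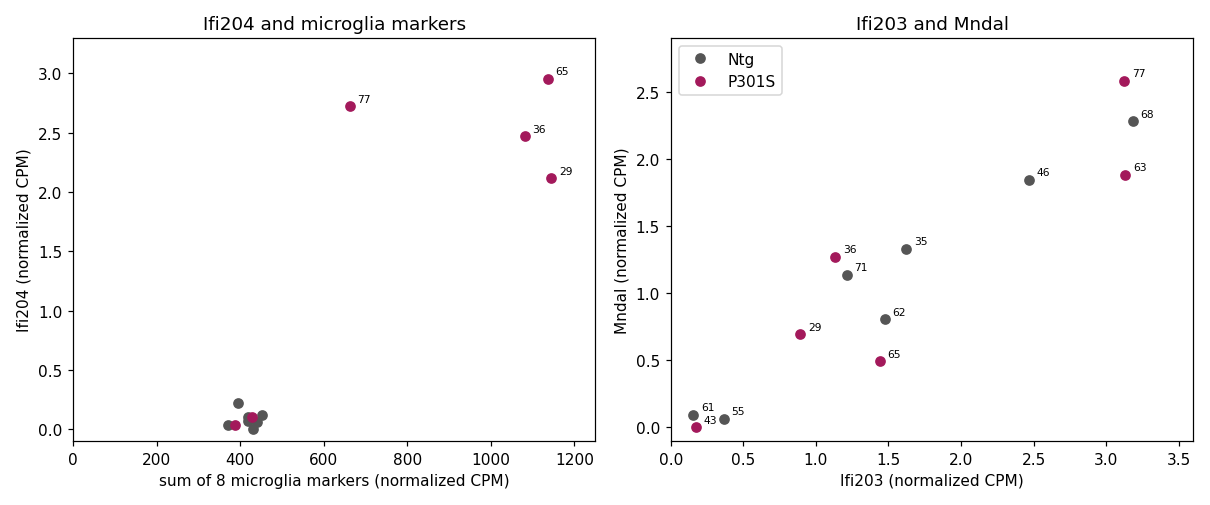
Left, Ifi204 against the sum of 8 microglia markers, and right, Mndal against Ifi203, in normalized CPM, 1 point for each of the 13 mice (Ntg grey, P301S purple; numbers name the mouse, on the left only above 0.5). On the left 4 P301S mice stand apart from a cluster near 0, and on the right mice 43, 55 and 61 lie near the origin and the others along a line.

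The 6 genes whose log2 normalized CPM was most like the mean of Aim2, Ifi203 and Mndal over the 13 mice were Apoa2, Fignl1, Trmt10a, C1ra, Apool and Nuf2 (Pearson r 0.859 to 0.890). Apoa2, an apolipoprotein gene, lies 2124.5 kb from the family on the same chromosome (171225054-171226379, plus strand), and Nuf2, which encodes a kinetochore protein, at 169497934-169531464 (minus). Apoa2 had 0 normalized CPM in mice 43 and 61 and 0.033 in mouse 55, against 0.327 to 0.995 in the other 10 mice. Those 3 mice were the ones with the lowest Ifi203 and Mndal. Both genes are in the mean by which Apoa2 was picked, so this likeness is partly built into the choice. The remaining 4 genes lie on chromosomes 11, 3, 6 and X.

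The pathway lists were read in hippocampi as well. Of 7 tested genes each, 1 was higher in P301S mice among the AIM2 partners (Casp4, log2 2.20, SE 0.45, adjusted p 0.0321), 1 among the DNA sensing genes (Irf7, 2.42, SE 0.46, adjusted p 0.0303) and 1 among the interferon signalling genes (Irf9, 1.24, SE 0.24, adjusted p 0.0303). Of all genes tested, 1.32% were higher.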

How the data were processed

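The submitters' labels describe total RNA from Zymo columns and QuantSeq 3′ forward libraries, whereas the study's methods name other columns for hippocampi. The authors deposited raw read counts per Ensembl gene, without normalization. Genome build GRCm38 and the tools edgeR and limma are named in the submitters' processing notes, and the aligner and counter are not given in the sources used here. Counts were tested with edgeR 4.0.16 in R 4.3.3 (TMM, filterByExpr, quasi-likelihood F test), with Benjamini-Hochberg adjustment over all 13675 genes tested in microglia (18 libraries in 1 fit) and 16453 in hippocampi (13 libraries). Calls needed adjusted p below 0.05 plus a minimum absolute log2 change (1 in microglia, 0.5 in hippocampi, none for interactions). The standard error (SE) is the log2 fold change over the root of F. A group was at the floor with 3 counts or fewer in every library. The prior count for likeness was 2. DESeq2 1.42.0, RLE scaling, no filter, covariates, a replicate block and leaving out each library were the alternatives. The steps were tested on simulated data. Named genes were the members, the label checks, the further family genes, up to 4 genes a list by HT-DNA change in WT cells and the 6 most alike in pattern; Irf9 in Cgas-/- microglia and hippocampi and Casp4 and Irf7 in hippocampi were added after their values were seen. The members and lists were chosen with earlier results of these data known. Cgas is listed under its older symbol Mb21d1. Library pairs of a group differed by more than sampling noise (chi-square per gene at least 2.32), so none was counted as a duplicate. Floors cover counting error only, whereas SE and p include the spread between libraries. One gene of the interferon signalling list is not reported here.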

Additional observations from a re-analysis of the deposited data

Results flagged for a closer look

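The tau response differed between Cgas-/- and WT microglia for all 8 members by the interaction test. Of all genes tested, 3.61% had a positive and 3.31% a negative difference. The Aim2 call was lost in 8 of 17 alternatives. The difference, Cgas-/- minus WT on the log2 scale, was 2.36 for Ifi203, 1.61 for Ifi204, 0.89 for Ifi207, 1.93 for Ifi209, 2.40 for Ifi211, 4.06 for Ifi213 (a fitted value that depends on vehicle libraries at the floor) and 1.42 for Mndal, and -0.35 for Aim2, the 1 member with the opposite sign. The HT-DNA response differed for 7 members, by -1.19 for Aim2, -2.02 for Ifi203, -1.51 for Ifi204, -0.80 for Ifi207, -2.11 for Ifi209, -1.29 for Ifi211 and -2.49 for Mndal. A negative HT-DNA difference was called for 16.6% of genes.

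Of 16 sets of hippocampal values (8 members in 2 groups), 1 had a mouse far from the rest of its group. Ifi211 had 0.111 normalized CPM in Ntg mouse 35, from 3 counts, which is at the floor. The rule's rate of about 1 set in 20 by chance assumes normally distributed values and does not hold for counts this low.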

How the results depend on the processing

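In microglia, all 122 recomputed counts of members called stayed within 1.5 times the values reported. With the replicate number as a block, they were 6 for tau and 8 for HT-DNA in WT cells, 7 and 0 in Cgas-/- cells, and 8 (tau) and 7 (HT-DNA) for the interactions. Same-numbered libraries of different groups did not deviate together (correlations from -0.085 to 0.0823 over 45 pairs), so the numbers do not pair them. The block changed no count of calls. On adjusted p alone, HT-DNA in Cgas-/- cells changed 1 member with edgeR, 1 with DESeq2 and 5 without the filter. With edgeR and the filter, 1.04% of genes were higher and 0.278% lower on adjusted p alone. No such share was computed for DESeq2 or without the filter. In hippocampi, 0 members were called; DESeq2 called 1, the fit without the filter 3 and DESeq2 without the filter, added after seeing the data, 5. Leaving out 1 mouse gave 0 or 1 call with the filter (1 without mouse 43). Without it, the same step, also added after seeing the data, gave 1 to 6 calls, with 6 without mouse 43, 5 without mouse 63, 2 without mouse 35, 55, 62 or 77 and 1 otherwise. DESeq2 may replace outlying counts in a group of 7. No paired analysis was possible for hippocampi because mouse numbers are not shared between the groups.

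Of 975 recomputed log2 fold changes in microglia, 3 changed sign, all when 1 library was left out of the HT-DNA comparison in Cgas-/- cells, where Aim2 ran from -0.0196 to 0.00854 and Ifi213 from -1.19 to 1.03. In hippocampi 16 of 96 did, in fits that left out 1 mouse. With the filter, Ifi203 ran from -0.14 to 0.44 and Mndal from -0.30 to 0.40. Without it, Ifi203 was at -0.0441 without mouse 55, -0.0742 without mouse 61 and -0.15 without mouse 63 or 77, and Mndal at -0.12 without mouse 55 or 61, -0.0905 without mouse 63 and -0.32 without mouse 77. In hippocampi 6 members, all but Aim2 and Ifi203, had under 100 counts in every library, which limits their precision.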

Other observations

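WT vehicle libraries varied alike for every member. In normalized CPM, replicate 1 was the highest and replicate 2 the lowest of the 3 for 8 of 8. The members move together, so these are not independent observations, and the share of all genes with this order was not computed. Of the further family genes, Ifi205 and Ifi208 had the same order. Ifi206 (33.1 normalized CPM) and Ifi214 (1.13) were lowest in replicate 3. Ifi203 had 126, 66.2 and 95.9 normalized CPM in replicates 1, 2 and 3, and Mndal 67.9, 35.3 and 52.1. In WT cells with HT-DNA the same genes had 503 to 538 and 252 to 263.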
